A study of Daphnia magna with 30 samples.

Results

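Whole adult females of the water flea Daphnia magna were compared between a short-day photoperiod, 8 h of light and 16 h of dark (8L:16D), and the longest day of the study, 20 h of light and 4 h of dark (20L:4D). Arrays were taken for this comparison by the photoperiod in their titles, which gave 12 of the 30 arrays of the first trial: 6 animals of 8L:16D and 6 of 20L:4D, from 3 exposure chambers on each side and 2 animals (A and B) per chamber. All 12 animals were 21 days old, came from a single clone founded by 1 individual, were reared at 25 °C from neonates of a 16L:8D culture, and were arrayed whole with any eggs or neonates in the brood pouch. The chambers of a photoperiod stood in the same light-proof box, so that photoperiod and box cannot be told apart. The animals were collected within the first hour of light, after a dark phase of 16 h under 8L:16D and of 4 h under 20L:4D, and day length and the length of that dark phase cannot be told apart. In RNA of whole animals, fewer cells of a type and less RNA per cell cannot be told apart. The comparison asked which transcripts differed between short and long days when neither is set against the 16L:8D culture standard.

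Day length is the main seasonal cue of cladocerans. Females reproduce clonally while conditions are good, and short days, together with crowding and scarce food, are among the cues for the production of males and of resting eggs. Light is read by opsins in the compound eye and passed on through arrestin-regulated signalling and neurotransmission, and the time of day is kept by a clock in which Period and other proteins repress their own transcription. Adult females moult and release a brood in the same cycle, so that cuticle, chitin and egg-yolk transcripts rise and fall with the stage of each animal as well as with its surroundings.

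Expression is given as log2 of the array signal relative to the 75th percentile of the same array, so that 0 is that percentile and a difference of 1 is a doubling. Differences are 20L:4D minus 8L:16D, and p-values are those of limma, a linear model with a spread moderated across probes, after Benjamini-Hochberg adjustment over 14338 probes unless called unadjusted. The 75th percentile of the signal lay between 359 and 643 intensity units on the 12 arrays, and 78.5% to 85.8% of probes per array were well above background. The 6 animals of 8L:16D resembled each other more than those of 20L:4D did: the median correlation across probes was 0.96 within 8L:16D and 0.91 within 20L:4D, against 0.92 between the photoperiods, and 72.8% of probes had the larger SD under 20L:4D. On the second principal component both animals of chamber 1 of 20L:4D lay apart at 111.4 and 109.2, where the other 10 lay between -51.7 and -0.25. These 2 animals shared a slide with none of the other 10. On the first component animals A of chamber 1 and B of chamber 3 of 20L:4D had positive scores, 51.6 and 68.8, as 4 of the 6 animals of 8L:16D did, and the other 4 animals of 20L:4D lay between -97.5 and -47.7.

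**Figure D1:**
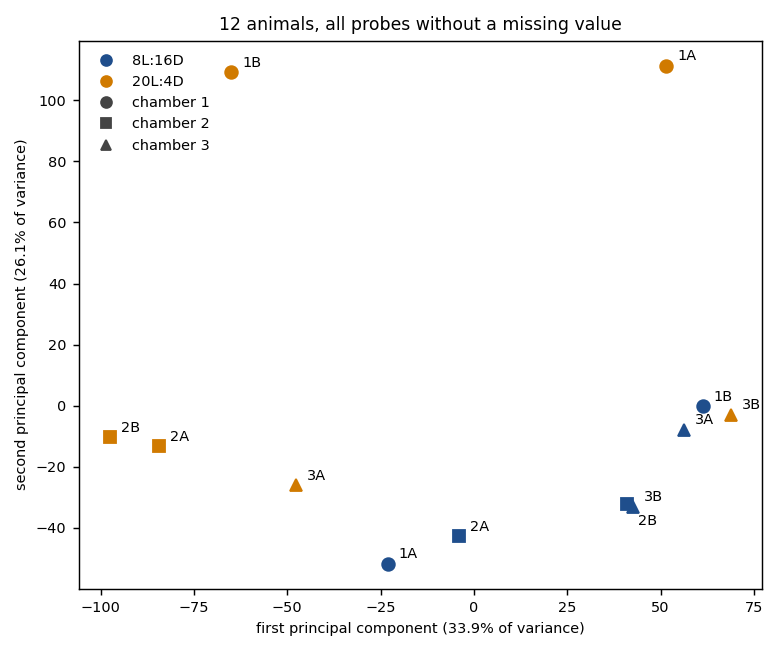
Scores of the 12 animals on the first (horizontal) and second (vertical) principal component of all probes without a missing value; colour is photoperiod, shape is chamber and the label is chamber and animal. Chamber 1 of 20L:4D is apart on the vertical axis (111.4 and 109.2), and animal 3B of 20L:4D lies at 68.8 on the horizontal axis, beyond the highest 8L:16D animal (61.3).

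At an adjusted p of 0.05, 26 of 14338 probes differed (0.181%), 8 of them higher and 18 lower under 20L:4D. They include a pair of probes near background in every 8L:16D animal, whose mean level rose at least 17.7-fold and at least 22.9-fold. Also among them are a high-affinity choline transporter that rose 3.21-fold, and an inositol polyphosphate phosphatase, Notch and a phosphofructokinase-2 that fell. None of the 18 that fell passed with chamber as a random block. Of the 26 probes, 24 had no overlap between the values of one photoperiod and those of the other, 22 changed at least 2-fold, and 18 were well above background on all 12 arrays. Among the 24, DM14488P1 lacked a value for animal 3B of 20L:4D. The study's supplement lists 14 of the 26, some of them as without a significant match, and for 5 the entry is the name of a known protein. The pairwise rule of the methods, an unadjusted p below 0.05 with a change of at least 1.5-fold, was met by 1737 probes (12.1%), 713 higher (4.97%) and 1024 lower (7.14%) under 20L:4D. With no model, 293 probes (2.04%) did not overlap between the photoperiods, 173 of them higher under 20L:4D. The balance of directions depended on the scaling: after quantile normalisation 51.1% of pairwise calls were higher under 20L:4D, against 41.0% here, and 18 of 32 adjusted calls were higher, against 8 of 26 here (20 of 42 with normexp background correction added).

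**Figure D2:**
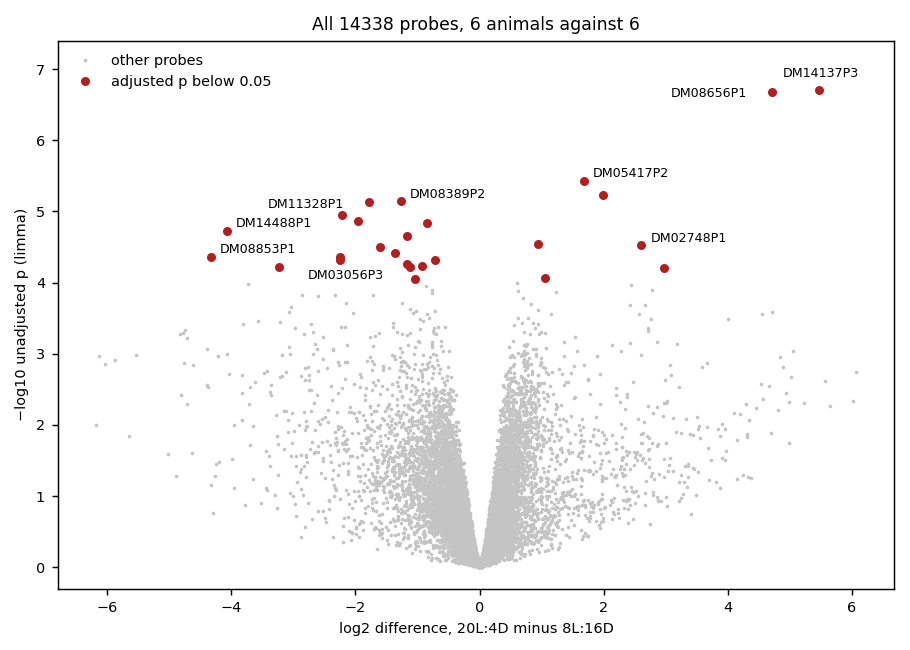
Log2 difference (20L:4D minus 8L:16D, horizontal) against -log10 of the unadjusted limma p (vertical) for all 14338 probes; red points are the 26 with an adjusted p below 0.05. DM14137P3 and DM08656P1 stand alone at the upper right, and 18 of the 26 red points lie on the side of lower levels under 20L:4D.

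The count of 26 treats the 6 animals of a photoperiod as independent. With chamber as a random block (limma, estimated correlation between chamber mates 0.21) 3 probes passed, all higher in 20L:4D: DM14137P3, DM08656P1 and DM05417P2. With slide as a fixed block none did, and 1629 probes had an unadjusted p below 0.05. Of the 12 arrays, 5 lay on the 2 slides that held both photoperiods. Within these slides the difference had the fitted direction on both for all 26 probes. These probes were called on the same arrays, and 24 of them did not overlap between the photoperiods. That direction was therefore all but given, and it is no test of a slide effect. Without chamber 1, 2 or 3 of 8L:16D the count was 2, 4 and 0, and without chamber 1, 2 or 3 of 20L:4D it was 51, 2 and 453.

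The probes with the 2 smallest p-values read neighbouring sequence. The 3 probes shown first are those of the largest rise and of a further probe annotated to the same protein, with the bases shared by the first 2 in capitals, as the study's supplement lists them from 5′ to 3′.
DM14137P3: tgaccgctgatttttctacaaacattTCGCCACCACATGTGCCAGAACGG
DM08656P1: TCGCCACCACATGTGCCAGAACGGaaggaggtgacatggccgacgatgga
DM07202P1: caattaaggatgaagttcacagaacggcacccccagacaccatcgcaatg
The last 24 bases of DM14137P3 are the first 24 of DM08656P1, so that the pair joins into 76 bases. Of the 2775 pairs among the 75 probe sequences compared, no other shared 15 bases or more. The study annotates DM14137P3 as an uncharacterised protein, APZ42_030656, and gives no significant match for DM08656P1, which by this overlap reads the adjoining stretch of the same or a near-identical transcript. The pair can therefore not be counted as 2 independent transcripts, and signal from near-identical copies cannot be separated. DM07202P1 carries the annotation of DM14137P3 and shares no stretch of 15 bases with it. No genome position is given, because no annotation of these targets was used here.

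DM14137P3 had values of -7.49, -6.79, -8.03, -7.44, -8.22 and -7.89 in the 8L:16D animals (chambers 1 to 3, A then B), and none of these 6 arrays had it well above background. In 20L:4D the values were -4.59, -1.23, -1.93, -1.29, -1.53 and -2.48, above background in each animal. Every 20L:4D animal was therefore above every 8L:16D animal by more than 2 log2 units, with animal 1A the lowest of its group. The mean level was at least 17.7-fold higher under 20L:4D, where the background limits the 8L:16D level. The fitted difference was 5.47 (SE 0.52, adjusted p = 0.00148, and adjusted p = 0.0084 with the chamber block, 0.0419 on chamber means and 0.398 with slide as a fixed block). Across the alternatives that held the probe, the fitted difference ran from 1.63 to 5.95. Within the 2 slides that held both photoperiods the difference was 6.02 and 5.25.

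DM08656P1 had values of -6.09, -6.80, -6.66, -6.01, -6.66 and -6.85 under 8L:16D, again above background on 0 of 6 arrays, and -3.94, -1.15, -1.61, -0.995, -1.06 and -2.07 under 20L:4D. The order within 20L:4D followed that of the overlapping probe at its low end, with 1A lowest and 3B next. The mean level was at least 22.9-fold higher (fitted difference 4.71, SE 0.45, adjusted p = 0.00148). In the alternatives that held DM08656P1, the fitted difference ran from 1.76 to 5.21. DM07202P1, the further probe of the same annotated protein, ran from -7.94 to -6.77 under 8L:16D (median -7.42) and from -6.31 to -4.71 under 20L:4D (median -5.35). It too was above background on no 8L:16D array and lowest in animal 1A of 20L:4D, but it rose less, at least 1.94-fold (fitted difference 2.00, SE 0.26, adjusted p = 0.0177). DM07202P1 was above background on 5 of the 6 arrays of 20L:4D. Counted over all 14338 probes, 3 were above background on none of the short-day arrays and on each long-day array, the overlapping pair and the unannotated DM11289P1 (difference 0.99, SE 0.24, adjusted p = 0.0938), and none showed the reverse.

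**Figure D3:**
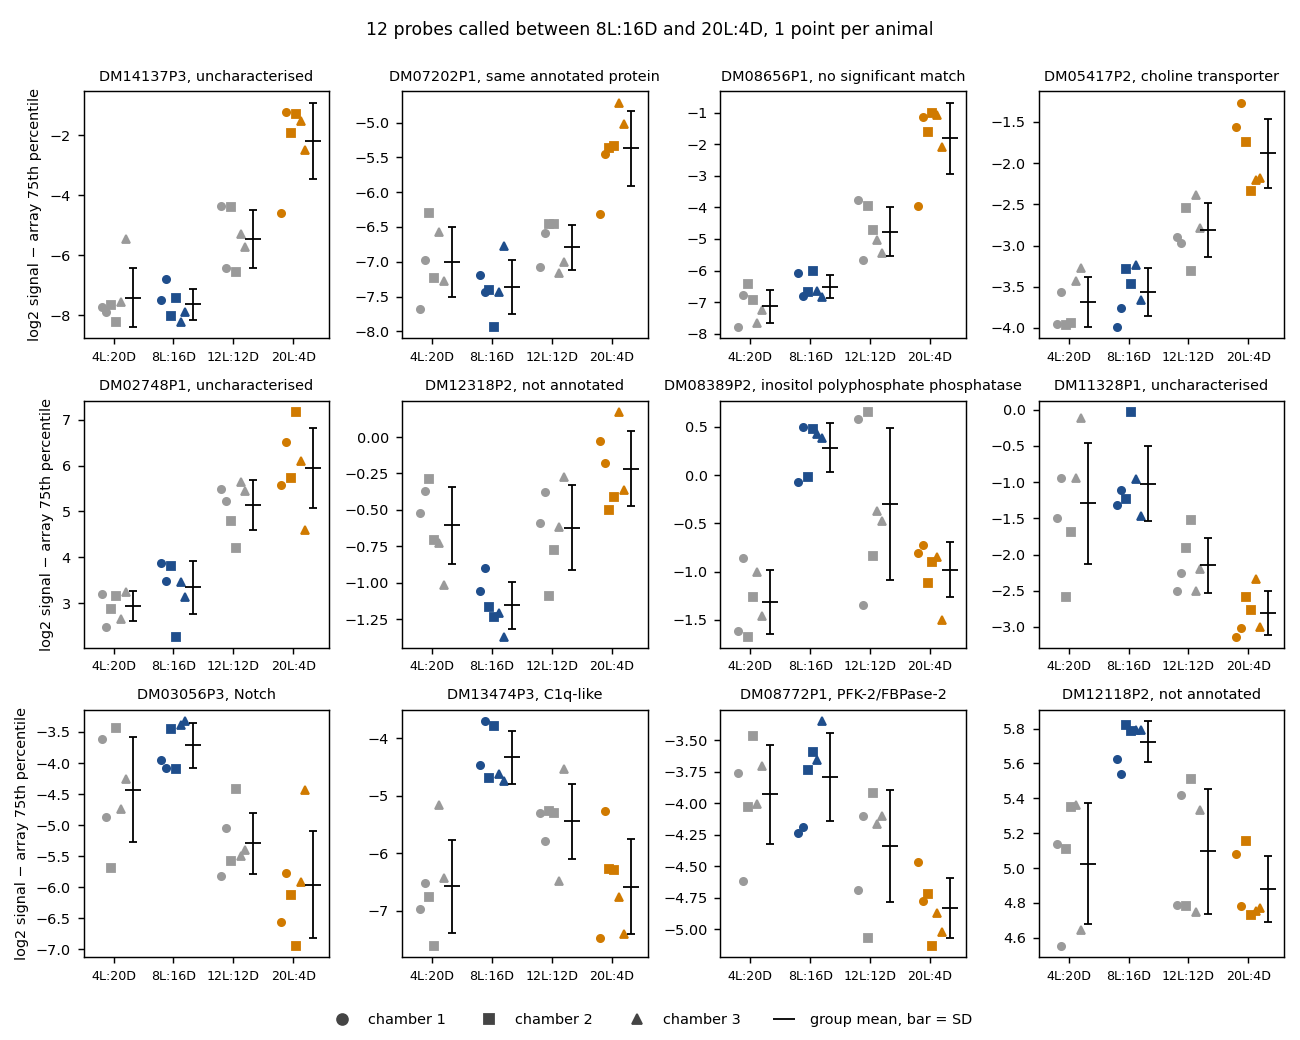
Log2 values (signal relative to the array's 75th percentile, vertical) of 12 of the 26 probes in single animals of 4 photoperiods; shape is chamber, the horizontal tick is the group mean and the bar its SD (n = 6). The 4 probes of the upper row separate the 8L:16D animals from the 20L:4D animals with no overlap, and the 12L:12D mean lies between theirs in each.

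The choline transporter and DM02748P1 rose from levels that were measured in every animal. Their probes are printed because they passed, carry an annotation and were above background on all 12 arrays.
DM05417P2: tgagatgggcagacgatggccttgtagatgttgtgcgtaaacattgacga
DM02748P1: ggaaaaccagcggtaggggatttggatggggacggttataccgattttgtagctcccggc
High-affinity choline transporters return choline to cholinergic nerve endings, where its uptake limits the synthesis of acetylcholine. DM05417P2 had values of -3.99, -3.76, -3.29, -3.46, -3.24 and -3.66 under 8L:16D and of -1.57, -1.27, -1.75, -2.33, -2.20 and -2.18 under 20L:4D. The groups did not overlap, and chamber 1 of 20L:4D was the highest. The level rose 3.21-fold (difference 1.68, SE 0.21, adjusted p = 0.0177; 0.0381 with the chamber block, but 0.31 on chamber means and 0.438 with slide as a fixed block), and within the 2 shared slides the difference was 1.27 and 1.55.

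DM02748P1, an uncharacterised protein (APZ42_005326), had values of 3.88, 3.49, 3.80, 2.27, 3.46 and 3.14 under 8L:16D and of 5.57, 6.51, 5.72, 7.17, 6.11 and 4.60 under 20L:4D. The lowest 20L:4D animal, 3B, was still above the highest 8L:16D animal. It rose 6.09-fold (difference 2.61, SE 0.40, adjusted p = 0.0319), with differences of 1.71 and 2.62 within the shared slides. The other 3 probes that rose have no annotation in the study. DM12318P2 ran from -1.37 to -0.90 under 8L:16D and from -0.50 to 0.17 under 20L:4D (difference 0.94, SE 0.14, adjusted p = 0.0319) and DM09399P3 rose by 1.05 (SE 0.18, adjusted p = 0.0488), both without overlap. DM01750P3 rose by 2.97 (SE 0.50, adjusted p = 0.0375), but animal 2A of 8L:16D, at -4.56, lay above animal 3B of 20L:4D, at -5.04, and the probe was above background on 1 of the 6 short-day arrays.

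None of the 18 probes that fell passed with chamber as a random block or on chamber means, and their p-values below treat chamber mates as independent. Of these 18, 4 have the name of a known protein, and their probe sequences are printed for that reason.
DM08389P2: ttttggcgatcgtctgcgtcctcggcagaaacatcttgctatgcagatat
DM03056P3: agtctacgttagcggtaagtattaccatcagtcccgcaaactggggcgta
DM13474P3: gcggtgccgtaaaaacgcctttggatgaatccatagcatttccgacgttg
DM08772P1: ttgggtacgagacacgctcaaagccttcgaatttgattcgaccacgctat
DM08389P2, multiple inositol polyphosphate phosphatase 1, belongs to the enzymes that remove phosphates from highly phosphorylated inositols. Its values were -0.07, 0.50, -0.02, 0.48, 0.42 and 0.38 under 8L:16D and -0.80, -0.72, -1.11, -0.90, -0.85 and -1.50 under 20L:4D. All 20L:4D animals were below all 8L:16D animals, and the level fell 2.40-fold (difference -1.26, SE 0.17, adjusted p = 0.0177; -1.73 and -1.35 within the shared slides).

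DM03056P3, annotated as Notch, the receptor of a cell-to-cell signalling pathway that in Drosophila patterns the follicle cells around the egg among many other tissues, had values of -3.94, -4.09, -3.45, -4.09, -3.38 and -3.33 under 8L:16D. In 20L:4D it had -6.56, -5.76, -6.13, -6.95, -5.92 and -4.43 and was above background on only 1 of 6 arrays. The fitted difference was -2.24 (SE 0.36, adjusted p = 0.0367; -1.90 and -1.83 within the shared slides), in which most long-day values are signals not well above background, and animal 3B of 20L:4D lay nearest to the short-day animals. The study chose this target partly on these animals, so that its fall is not independent evidence.

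DM13474P3, a C1q adipose specific-like protein, ran from -4.74 to -3.71 under 8L:16D (median -4.54) and from -7.48 to -5.26 under 20L:4D (median -6.53), where it was above background on 1 of 6 arrays. The fitted difference was -2.24 (SE 0.37, adjusted p = 0.0368), with the same limit on the long-day level. DM08772P1, 6-phosphofructo-2-kinase/fructose-2,6-bisphosphatase, sets the level of fructose 2,6-bisphosphate, an activator of glycolysis. Its values were -4.23, -4.18, -3.74, -3.59, -3.65 and -3.35 under 8L:16D and -4.47, -4.77, -4.72, -5.13, -4.87 and -5.02 under 20L:4D. It fell 2.05-fold (difference -1.04, SE 0.18, adjusted p = 0.0488), and the gap between the groups was narrow, between chamber 1 of 8L:16D and animal 1A of 20L:4D.

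Among the falling probes without a known protein, DM08853P1 and DM14488P1 changed most. DM08853P1 ran from -2.81 to -0.34 under 8L:16D and from -8.13 to -3.56 under 20L:4D (20.1-fold, difference -4.33, SE 0.69, adjusted p = 0.0367), with signal above background in 4 of the 6 long-day animals. DM14488P1 ran from 1.71 to 4.07 under 8L:16D and from -2.85 to -0.04 in the 5 animals of 20L:4D with a value, since the spot of animal 3B was flagged as an outlier and left out (16.8-fold, difference -4.07, SE 0.57, adjusted p = 0.0267). At the other end, 3 unannotated probes fell by less than 1 log2 unit and with little spread: DM02017P1 ran from 8.19 to 8.43 under 8L:16D and from 7.30 to 7.79 under 20L:4D (difference -0.72, SE 0.12, adjusted p = 0.0368), DM09971P1 fell by 0.92 (SE 0.15, adjusted p = 0.0375) and DM12118P2 by 0.85 (SE 0.12, adjusted p = 0.0233). Only DM08011P3 of the 18 overlapped between the groups: animal 3B of 20L:4D, at -1.13, lay above the lowest 8L:16D animal, at -1.15, where the other 5 lay from -4.78 to -3.58 (difference -3.23, SE 0.54, adjusted p = 0.0375). DM05026P3 was above background on no 20L:4D array and fell at least 2.52-fold (adjusted p = 0.0229).

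Just outside the threshold stood named enzymes with large differences. Chymotrypsin BI (DM04058P1), a digestive protease, ran from 3.99 to 6.23 under 8L:16D (median 5.54) and from -0.01 to 4.07 under 20L:4D (median 1.46), a mean difference of -3.73 (SE 0.66, adjusted p = 0.0531). The serine protease Jonah 65Aiv (DM02831P3) ran from -3.23 to -2.48 under 8L:16D and from -7.41 to -3.61 under 20L:4D (difference -2.98, SE 0.62, adjusted p = 0.075). Cytochrome P450 305a1 (DM12027P2) was above background on no 8L:16D array and on 4 of 6 of 20L:4D, at least 3.93-fold apart (fitted difference 2.78, SE 0.50, adjusted p = 0.0563). Glutamate decarboxylase (DM00966P3), which makes the transmitter GABA, ran from -4.46 to -3.91 under 8L:16D and from -5.34 to -4.73 under 20L:4D (difference -0.77, SE 0.14, adjusted p = 0.057). None of these 4 passed the adjusted threshold, though Jonah 65Aiv did on chamber means (adjusted p = 0.0419). Its signal was above background in 2 of the 6 long-day animals. The groups did not overlap in the last 3.

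The largest mean differences in a set of well-measured probes did not pass either. Of probes above background on all 12 arrays and with an unadjusted p below 0.01, the 5 with the largest rise differed by 4.81 to 5.06 and the 5 with the largest fall by -6.04 to -4.76, with adjusted p from 0.075 to 0.133. None of the 10 is annotated by the study. The SD between animals reached 1.20 at most under 8L:16D and lay between 2.65 and 3.82 under 20L:4D. DM06785P4 had values from -2.30 to -0.37 under 8L:16D, and 4.00, 8.99, 3.93, 4.82, 0.70 and -2.18 under 20L:4D (difference 4.81, SE 1.45, adjusted p = 0.133). DM11842P3 had values from 2.44 to 4.84 under 8L:16D, and 1.00, -4.77, -5.31, -5.63, -1.44 and 3.66 under 20L:4D (difference -6.04, SE 1.47, adjusted p = 0.0938). In both, chamber 2 and animal 1B of 20L:4D were far from the short-day animals and animal 3B was among them. Across the 10 probes, animal 3B was the 20L:4D animal nearest to the 8L:16D side in all 10 and lay inside the 8L:16D range in 8. Without chamber 3 of 20L:4D, which holds this animal, all 10 passed (DM06785P4 adjusted p = 0.00468, DM11842P3 adjusted p = 0.00863), and without any other of the 6 chambers none did (adjusted p from 0.0686 to 0.367). Since the animal was noticed in these same values, this is a description and no test. The summed level of cuticle and chitin probes also varied widely between animals, from 19.8 to 89.0 under 8L:16D and from 5.50 to 30.7 under 20L:4D (in multiples of the array's 75th percentile), and its part in these differences was not tested.

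**Figure D4:**
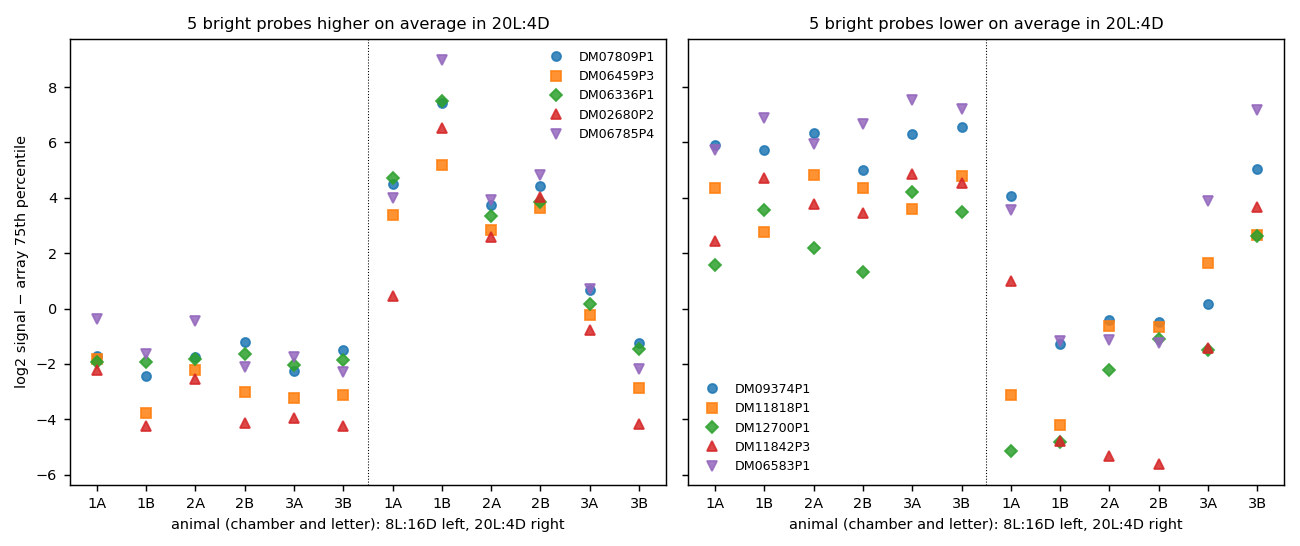
Log2 values (vertical) of 10 probes by animal (horizontal, chamber and letter), where the dotted line divides 8L:16D from 20L:4D. They have the largest mean differences among probes above background on all 12 arrays and with an unadjusted limma p below 0.01. Animals of chambers 1 and 2 of 20L:4D mostly lie far from the 8L:16D animals and animal 3B lies inside the 8L:16D range for 8 of the 10 probes.

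The levels under 4L:20D and 12L:12D, 6 animals each, place these differences among the other short and equinox days. For 24 of the 26 probes the 12L:12D mean lay between those of 8L:16D and 20L:4D, and for 19 it was nearer to 20L:4D. As the 26 were selected for a large gap between 8L:16D and 20L:4D, another mean within that gap is a description and no finding about these probes. The 4L:20D mean was nearer to 8L:16D for 17 and nearer to 20L:4D for 9. DM14137P3 averaged -7.42 ± 0.98 (SD, n = 6) under 4L:20D, -7.64 ± 0.52 under 8L:16D, -5.46 ± 0.96 under 12L:12D and -2.17 ± 1.27 under 20L:4D, and its overlapping probe DM08656P1 was likewise lowest on the 2 short days (-7.14 ± 0.53 and -6.51 ± 0.37). DM05417P2 averaged -3.69 ± 0.30 under 4L:20D, -3.57 ± 0.29 under 8L:16D, -2.81 ± 0.33 under 12L:12D and -1.88 ± 0.42 under 20L:4D.

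Other probes were highest under 8L:16D and low on both the shortest and the longest day. DM08389P2, the inositol polyphosphate phosphatase, averaged -1.31 ± 0.33 under 4L:20D, 0.28 ± 0.26 under 8L:16D, -0.30 ± 0.79 under 12L:12D and -0.98 ± 0.29 under 20L:4D (SD, n = 6), so that the shortest day lay beyond the longest and the 2 short days differed more than 8L:16D and 20L:4D did. DM13474P3, the C1q-like protein, averaged -6.58 under both 4L:20D and 20L:4D, each with 1 of 6 arrays above background, against -4.33 under 8L:16D, with all 6. For these probes the difference between 8L:16D and 20L:4D is not an order of day length.

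Of 11 targets grouped by function in the paper for the first trial, 1 passed the adjusted threshold (Notch, lower) and 4 met the pairwise rule, all lower under 20L:4D. The median difference of the 11 was -0.47, against -0.04 over all 14338 probes, and 10 of the 11 were below 0. The study chose them against 16L:8D partly on these same animals, so that this is not independent evidence of a direction. The probes of its trial 1 lists met the pairwise rule in 92 of 225 cases (40.9%), 37 higher and 55 lower, whereas the 733 probes listed only for trial 2, from other animals, did so in 75 (10.2%), 19 higher and 56 lower, with 2 adjusted calls, both lower. The second share is near the 12.1% over all probes.

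The 4 annotated vision probes all had lower means under 20L:4D, with a median difference of -0.49; 1 met the pairwise rule (25%, against 12.1% of all probes) and none passed after adjustment. All 4 were listed by the study for trial 1, partly on these animals, so that their direction is not independent evidence. The transient receptor potential channel DM04699P3, of the family that in Drosophila carries the light-evoked current of the eye, ran from -4.13 to -3.44 under 8L:16D and from -5.89 to -4.50 under 20L:4D (difference -1.03, SE 0.23, unadjusted p = 0.000816, adjusted p = 0.0886). Arrestin, DM03055P2, which ends the signal of active rhodopsin, ran from 4.47 to 5.05 under 8L:16D and from 3.89 to 4.46 under 20L:4D (difference -0.50, SE 0.14, adjusted p = 0.124). Neither overlapped between the photoperiods. Of the 4 opsin targets, DM06131P3 met the pairwise rule (difference -0.62, SE 0.18, unadjusted p = 0.0042, adjusted p = 0.122) and the other 3 differed by -0.47, -0.35 and -0.08.

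The clock list holds 4 probes, none of trial 1, with a median difference of 0.48. The Period probe DM09904P4 was the 1 of 4 that met the pairwise rule (12.1% of all probes), with values from -2.09 to -1.41 under 8L:16D and from -1.64 to -0.45 under 20L:4D (difference 0.63, SE 0.21, unadjusted p = 0.0104, adjusted p = 0.154). A further Period probe, DM14516P3, differed by 0.32 (adjusted p = 0.368), the nuclear receptor DM00285P3 by 0.65 (adjusted p = 0.334) and the F-box/LRR-repeat protein DM09476P2 by -0.56 (adjusted p = 0.371). The clock target listed for the first trial, DM12109P1, differed by 0.10 (SE 0.15, adjusted p = 0.761). All animals were taken within the first hour of light, after 16 h of dark under 8L:16D and 4 h under 20L:4D. The values are those of a single sampling point in each light cycle.

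Among 13 neural probes, 2 met the pairwise rule upwards and 3 downwards (38.5%, against 12.1% of all probes). The 3 listed by the study for trial 1 all met it, and 2 of the other 10 did. Besides the choline transporter, the kainate-type glutamate receptor DM10654P3 had a higher mean under 20L:4D (difference 1.15, SE 0.37, adjusted p = 0.146), and glutamate decarboxylase, contactin-4 (DM00612P2, -0.67) and a further kainate receptor (DM10810P1, -1.50) had lower means. Of the 9 egg and oogenesis probes 2 met the pairwise rule (22.2%, against 12.1%). Notch passed, and the vitelline membrane protein DM11500P2 met the pairwise rule downwards (difference -1.25, SE 0.57, adjusted p = 0.263). A further vitelline membrane probe, DM06044P1, went the other way without meeting the rule. It ran from 3.65 to 4.55 under 8L:16D and from 4.18 to 5.34 under 20L:4D. The yolk protein vitellogenin, the marker of egg-bearing females, was above background on all 12 arrays in both of its probes and differed by -0.27 (DM00375P2, SE 0.27, adjusted p = 0.622) and 0.83 (DM01555P3, SE 0.79, adjusted p = 0.607). The summed level of the egg list ran from 18.6 to 29.4 under 8L:16D and from 22.2 to 58.4 under 20L:4D. Of the 3 sex-determination probes none met either rule (largest difference -0.26).

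Of the 11 cuticle and chitin probes, 3 met the pairwise rule, all lower under 20L:4D (27.3%, against 12.1% of all probes and 7.14% in this direction), and the median difference was -0.71. Of the 9 listed for trial 2 alone, 2 met it. These 2 were a chitinase domain-containing protein (DM12429P1, -0.83, SE 0.22, adjusted p = 0.107) and a cuticle protein (DM12885P2, -1.92, SE 0.70, adjusted p = 0.182). The third call was a brain chitinase (DM13721P2, -0.71, SE 0.29, adjusted p = 0.219), which the study listed for trial 1, partly on these animals. The cuticle protein alone ran from 3.21 to 6.40 under 8L:16D and from 1.32 to 4.82 under 20L:4D. The summed level of the list had a median of 40.5 under 8L:16D and of 16.6 under 20L:4D, with overlap. These transcripts change with the stage of the moult, which was not recorded in the labels, and its part in this difference was not tested. Among 20 basement-membrane and adhesion probes 1 met the pairwise rule (5.0%), collagen alpha-1(XVIII) (DM05241P2), which ran from -2.06 to -1.06 under 8L:16D and from -3.04 to -2.13 under 20L:4D (difference -0.85, SE 0.21, adjusted p = 0.0938).

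Of 18 digestive enzyme probes, 7 met the pairwise rule (38.9%, against 12.1% of all probes), 6 lower and 1 higher under 20L:4D, and none passed after adjustment. Beside chymotrypsin BI and Jonah 65Aiv, the plant-cell-wall enzyme endo-beta-1,4-mannanase (DM02251P3, -2.10, SE 0.64, adjusted p = 0.136), carboxypeptidase B (DM04713P2, -1.15, adjusted p = 0.129) and both alpha-amylase probes (DM05956P1, -0.81, adjusted p = 0.221, and DM01884P2, -0.97, adjusted p = 0.231) had lower means under 20L:4D. The endoglucanase DM02972P1, which cuts cellulose, had the higher mean under 20L:4D (1.11, SE 0.31, adjusted p = 0.118). The median difference of the list was -0.30. The study listed 6 of the 18 probes for trial 1, partly on these animals, and 5 of those 6 met the rule; of the 12 listed for trial 2 alone 2 did (16.7%).

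Energy metabolism was mixed: of 25 probes 3 met the pairwise rule upwards and 3 downwards (24%, against 12.1% of all probes), with a median difference of -0.06. All 3 probes listed for trial 1 were among the calls, and 3 of the 22 listed for trial 2 alone (13.6%). Phosphoglucose isomerase of glycolysis (DM00759P3, 0.81, SE 0.22, adjusted p = 0.113) and 2 of the 3 named probes of ATP-citrate synthase, which supplies acetyl-CoA for fat synthesis (DM00824P2, 0.66, and DM03431P3, 0.81), met the rule upwards. The third, DM03052P2, differed by 0.53. Phosphofructokinase-2, glucose dehydrogenase (DM00868P2, -0.66, SE 0.20, adjusted p = 0.129) and medium-chain acyl-CoA dehydrogenase of fat oxidation (DM06370P1, -1.75, SE 0.74, adjusted p = 0.229) met it downwards. Of 17 detoxification probes 4 met the rule (23.5%), all of them among the 6 listed for trial 1 and none among the other 11. Cytochrome P450 305a1 met it upwards and 3 downwards, among them a sulfotransferase (DM02287P2, -1.56, SE 0.38, adjusted p = 0.0945) and a glucuronosyl transferase (DM02769P2, -1.10, SE 0.28, adjusted p = 0.103). The hemoglobin probe, DM01567P2, differed by 0.26 (SE 0.47, adjusted p = 0.824).

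The chaperone list of 13 probes had 2 pairwise calls upwards and 1 downwards (23.1%, against 12.1% of all probes), with a median difference of -0.01. Of the 3 listed for trial 1, 2 were called, and of the other 10, 1. DnaJ protein 1 (DM00620P2) ran from 0.02 to 0.24 under 8L:16D and from 0.47 to 1.04 under 20L:4D (difference 0.62, SE 0.12, adjusted p = 0.0736). Its partner chaperone Hsp70 (DM00226P3) ran from -0.92 to 0.48 under 8L:16D and from 0.68 to 1.43 under 20L:4D (difference 1.06, SE 0.26, adjusted p = 0.0945). Neither overlapped between the photoperiods. The Hsp70 mean was 0.78 under 4L:20D and 0.74 under 12L:12D, against -0.03 under 8L:16D and 1.02 under 20L:4D, and that of DnaJ 0.67 and 0.55, against 0.10 and 0.72, so that 8L:16D was the lowest of the 4 photoperiods in both.

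Among lists of the basic machinery of the cell, the pairwise rule was met by 2 of 18 proteasome probes (11.1%, near the 12.1% of all probes), 1 of 22 ribosome-biogenesis probes (4.55%), 1 of 16 translation probes (6.25%) and none of 12 splicing probes, each call lower under 20L:4D. Their median differences were -0.25, 0.00, -0.04 and -0.17. The 2 proteasome calls were a beta subunit (DM02051P3, -0.86, SE 0.26, adjusted p = 0.134) and a non-ATPase regulatory subunit (DM05329P3, at least 1.62-fold lower, adjusted p = 0.138). The medians of the vision, clock, cuticle, matrix and trial 1 target lists kept their sign in the alternatives run. Those of the neural, egg, digestive, detoxification, proteasome and splicing lists took the other sign in 1 to 4 of them. The medians near 0 were the least stable. The other sign was taken in 20 alternatives by the chaperone list and in 13 by the sex-determination list. For ribosome biogenesis and energy it was 12 each, for translation 10, and for the hemoglobin probe 3.

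**Figure D5:**
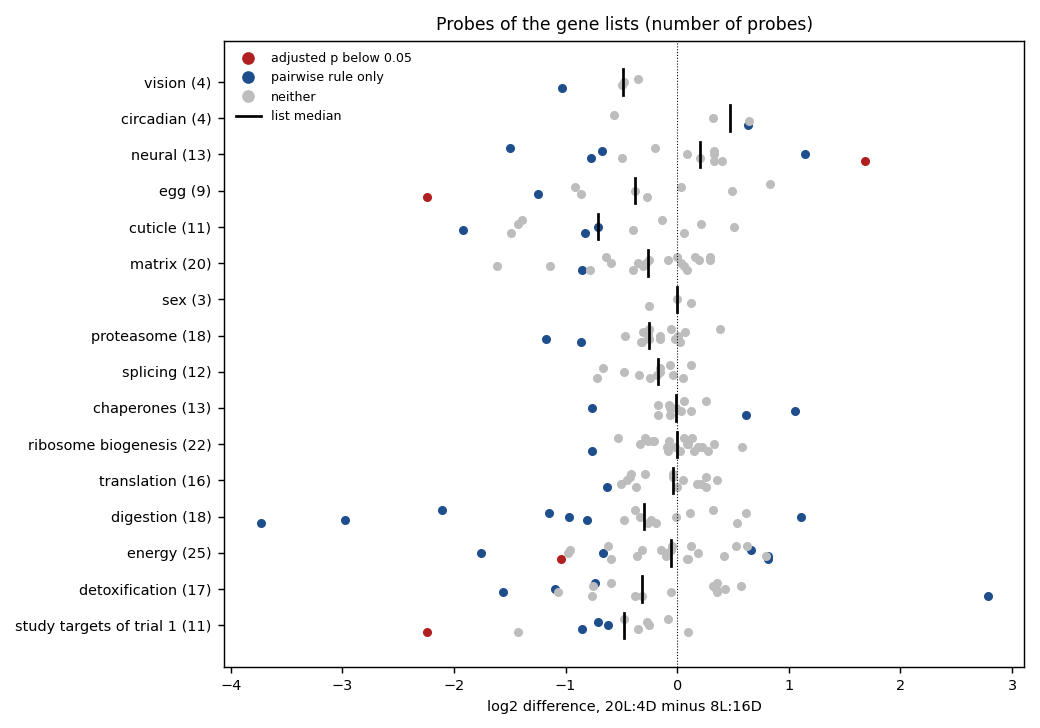
Log2 difference (20L:4D minus 8L:16D, horizontal) of each probe of the 15 lists with more than 1 probe and of the study's 11 trial 1 targets (rows, number of probes in brackets); red points passed the adjusted threshold, blue points met the pairwise rule only, grey points neither, and the black bar is the list's median. The cuticle list has the lowest median (-0.71), and the digestive list holds 6 blue points below 0 and 1 above.

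Whether the difference between photoperiods depended on the letter of the animal in its chamber was tested with an interaction term, as in the methods. In limma no probe passed after adjustment, 441 had an unadjusted p below 0.05 and 51 below 0.01. The letters only name the animals of a chamber.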

How the data were processed

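Per the labels, 80 ng of RNA of each single animal, labelled with Cy3, went onto its own 1-colour Agilent array. The deposited intensity values are Agilent Feature Extraction's processed signal, with the background subtracted (version 9.5.1 per the labels, 10.7.3.1 in the file headers). The authors' deposited log2 values, scaled to the 75th percentile, served as an alternative. Here, values were log2 signals from which the 75th percentile over 15208 non-control spots was subtracted; spots of the same probe were averaged and 68 outlier spots (0.037%) on 12 arrays were left out. No spot was saturated. The number of arrays limits precision.

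Photoperiod alone was fitted to the 12 arrays with limma 3.58.1 (R 4.3.3; lmFit and eBayes), two-sided, at an adjusted threshold of 0.05. Where no array of a group was above background, its level was bounded by the lowest signal above background. A fold given as at least so much compares group means under the scaling used here and can be smaller under another. P-values measure the spread between animals of 1 box each. The comparison, members and lists were chosen with earlier results of these data known. Lists are keyword matches in the entries the study gives for 958 probes, 475 of them with the name of a known protein. The adhesion keywords also took in a disintegrin. Each list is reported by its counts and median. Probes were named by a rule. It took the 10 smallest p in each direction, overall and among named proteins, and the 11 study targets. It also took the 5 largest changes in each direction among bright probes with an unadjusted limma p below 0.01. From each list it took members with an unadjusted p below 0.05, or the smallest. Other probes past the adjusted threshold and other list members named were picked after their values were seen. Alternatives covered background, scaling, filters, model terms, blocks, weights and each chamber or animal left out; normexp used the median spot signal, since the mean signal planned was not in the files used. Some of the models, the random blocks not among them, were first run on simulated data. The simulated animals were independent, so that these runs cannot show what shared chambers or slides do. The 16L:8D arrays entered only the alternative in which all 30 arrays shared the spread.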

Additional observations from a re-analysis of the deposited data

Results flagged for a closer look

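In 15 of 207 groups of 6 animals examined for the named probes, the gap from a single animal to the nearest of the other 5 took more of the group's whole range than the critical value of Dixon's test allows, which chance alone exceeds in about 1 in 20 groups. In 4 of the 15 the animal was 1A of 20L:4D. DM14137P3 was at -4.59 in that animal against a mean of -1.69 in the other 5, and the overlapping probe DM08656P1 at -3.94 against -1.38. ATP-citrate synthase DM03431P3 was at -0.23 in it against -1.89, and the kainate receptor DM10810P1 at -1.94 against 1.36. The other 20L:4D animals apart were 3A in DM14743P1 (-3.32 against -3.88) and in the vitelline membrane protein DM06044P1 (5.34 against 4.28), and 3B in DM08011P3 (-1.13 against -4.23).

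In 8L:16D, animal 2B lay apart in 4 groups: DM11328P1 (-0.032 against -1.22), the opsin DM01796P2 (-0.66 against -0.92), medium-chain acyl-CoA dehydrogenase DM06370P1 (-1.84 against -0.37) and the transient receptor potential channel DM04699P3 (-3.44 against -4.07). Animal 2A was at -4.56 in DM01750P3, where the other 5 averaged -7.11. Animal 3B was at -2.61 in the S6 kinase-like protein DM09584P2 (-2.32 in the others) and at 1.90 in the nucleolar protein DM03804P1 (2.34), and animal 1B at -0.86 in the mitochondrial ribosomal protein DM06364P2 (-0.51).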

How the results depend on the processing

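Of 14338 probes, 26 passed the adjusted threshold. The count was 42 with normexp and quantile normalisation, 47 without moderation, 63 when the 12 arrays shared their spread with those of 4L:20D and 12L:12D, 1357 with array quality weights, 2 with letter and interaction, 3 with chamber as a random block, 3 on chamber means, and 0 with slide as a fixed block (1629 at an unadjusted p below 0.05) or, an alternative added after the data were seen, on the 5 arrays of shared slides (1579). With chambers left out it ranged from 0 (8L:16D chamber 3) to 453 (20L:4D chamber 3). With an animal left out it ranged from 2 (20L:4D 2A) to 393 (20L:4D 3B), and was 52 without 1B of 20L:4D and 20 or fewer otherwise. Replicate numbers did not pair the animals (correlations of chamber deviations -0.07, 0.16 and 0.00), and a replicate block gave 69 calls, 25 of them among the 26. The pairwise count of 1737 was 790 with normexp and 1138 on probes above background on all arrays, and with samples left out 1187 to 2105. The 293 probes without overlap became 329 to 1051 with samples left out, a count that fewer animals can only keep or raise. The interaction count of 0 was 1 without 8L:16D animal 3A. Of the 38 alternatives, some filters dropped probes near background. No probe of the 26 changed direction in those that held it, none passed in all of these, and 8 passed in at least 20. The 26 were called on these same arrays, so that a kept direction was all but given and is no test. Array number limits all values, and background those of probes not well above it on every array, 4 of the 26 with no such array in a group (DM14137P3, DM08656P1, DM07202P1 and DM05026P3) and Notch and DM13474P3 with 1 of 6 among others.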
